A study of Mus musculus with 6 samples.

Results

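The insulin-like growth factor (IGF) family was described in mouse hearts at day 4, in a series that asks what maternal diabetes does to the heart of the offspring. The 10 genes are the ligands Igf1 and Igf2, the receptors Igf1r, Igf2r and Insr, and the binding proteins Igfbp2, Igfbp3, Igfbp4, Igfbp5 and Igfbp7. They were taken by gene symbol from a deposited table of 54532 genes, and all 10 were found. RNA was sequenced from hearts of 3 offspring in the STZ group, whose mothers received intraperitoneal injections of STZ (read here as streptozotocin, a toxin of the insulin-secreting beta cell) while pregnant, and from hearts of 3 offspring in the control group, whose mothers received citric acid in the same way. All hearts came from wild-type ICR mice, an outbred stock, and the labels state neither litters nor maternal blood glucose, so p-values measure the spread between these 6 samples only.

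IGF1 and IGF2 are small secreted growth factors related to insulin, and both act through the IGF1 receptor, a tyrosine kinase. The insulin receptor, encoded by Insr, is its closest relative and also takes IGF2. The product of Igf2r has no kinase: it binds IGF2 at the cell surface and carries it to the lysosome, and it also sorts lysosomal enzymes that carry mannose 6-phosphate. The binding proteins hold IGFs outside the cell and set how much reaches the receptors, with Igfbp7 a distant relative of low IGF affinity. In the perinatal heart IGF signalling is known for driving growth and division of heart muscle cells, and Igf2 and Igf2r are imprinted in the mouse, Igf2 being expressed mainly from the paternal and Igf2r mainly from the maternal copy.

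Values are FPKM, read numbers divided by gene length and by a depth factor of each library. The whole reads recovered from them came to 16707268 in the shallowest and 18082599 in the deepest library. Control 2 stood apart from the other 5 libraries. The summed level of 5 atrial markers was 32.7 to 115.9 FPKM in STZ hearts, 6102 FPKM in control 2 and 37.8 to 43.8 FPKM in the other control hearts. The 6 thymocyte markers summed to 0.683 to 1.43 FPKM in STZ hearts, 69.1 FPKM in control 2 and 0.668 to 1.54 FPKM in the other control hearts. Ucp1, the uncoupling protein of brown fat, was listed at 0 in all STZ hearts, at 213 FPKM in control 2 and at 0 in the other control hearts. All 8 cardiomyocyte markers were lowest in control 2, and they summed to 7074 to 7343 FPKM in STZ hearts, 3681 FPKM in control 2 and 6360 to 7596 FPKM in the other control hearts. Xist was at no more than 0.0541 FPKM in STZ hearts, at 70.6 FPKM in control 3 and at no more than 0.0199 FPKM in the other control hearts, and control 3 was the 1 library without reads of the Y-linked genes Ddx3y, Eif2s3y, Kdm5d and Uty. Differences of the family members are therefore given with all 6 libraries and without control 2. By these genes sex was not balanced between the groups, and leaving out control 2 keeps control 3 and does not balance it. The part that other tissue in control 2, or sex, has in the differences was not tested.

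Of the 10 members, the STZ and control values did not overlap for Igf2r, which stood higher in STZ hearts, and for Igfbp2, Igfbp3 and Igfbp7, which stood lower. Igfbp2 was too low to be tested, and its nearest values, in STZ 1 and control 1, both rested on 10 reads. Among the 9 tested members the groups did not overlap at 3, against 8.54% of all tested genes. Promoters are shown for these 3, which passed the filter on low values (at least 1 FPKM in at least 3 samples). Each window is the 250 bases before the start in RefSeq (GRCm38.p6), on the minus strand and written 5′ to 3′, and capitals mark the GC box GGGCGG, read on both strands. The windows are chr17:12769707-12769956 for Igf2r, chr11:7213924-7214173 for Igfbp3 and chr5:77408046-77408295 for Igfbp7.
Igf2r: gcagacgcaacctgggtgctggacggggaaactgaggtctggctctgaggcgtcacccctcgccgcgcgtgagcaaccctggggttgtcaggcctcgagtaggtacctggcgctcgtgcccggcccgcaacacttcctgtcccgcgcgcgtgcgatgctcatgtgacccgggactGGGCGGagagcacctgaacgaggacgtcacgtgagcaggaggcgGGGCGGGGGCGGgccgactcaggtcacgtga
Igfbp3: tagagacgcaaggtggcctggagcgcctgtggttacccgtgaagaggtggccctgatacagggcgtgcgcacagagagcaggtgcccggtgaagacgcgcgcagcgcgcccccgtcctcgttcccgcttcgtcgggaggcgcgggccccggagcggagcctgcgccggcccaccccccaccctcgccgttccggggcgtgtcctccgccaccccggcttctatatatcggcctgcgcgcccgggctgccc
Igfbp7: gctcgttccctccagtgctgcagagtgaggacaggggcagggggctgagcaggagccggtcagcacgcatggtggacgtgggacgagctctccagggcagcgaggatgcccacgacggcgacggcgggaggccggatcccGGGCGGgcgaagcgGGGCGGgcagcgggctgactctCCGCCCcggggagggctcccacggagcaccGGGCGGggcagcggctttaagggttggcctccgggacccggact

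The GC box, a letter pattern known to bind Sp1-type factors, occurred 3 times before Igf2r, 4 times before Igfbp7 and 0 times before Igfbp3, and 32.7% of all 32851 promoter windows held it. None of the 3 windows held CCAAT or TATAAA on either strand, which 33.8% and 12.4% of all windows held. All 3 were rich in the dinucleotide CG, with 27 before Igf2r, 32 before Igfbp3 and 26 before Igfbp7, against a median of 6 over all windows. Members whose groups overlapped varied: 42 before Igf1r, 22 before Igfbp4, 10 before Igfbp5, 5 before Igf1, and 1, 10, 22 and 6 in the Igf2 windows. The GC box occurred 2 times before Igf1r, 0 times before Igfbp4, Igfbp5 and Igf1, and 0, 0, 1 and 2 times in the Igf2 windows. A link of these features to the differences was not tested. A promoter entry was found for 9 of the 10 members, the other being Insr.

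By level, the family was dominated by binding proteins. Igfbp7 was the highest member in every library, with a mean of 158.6 FPKM over the 6 libraries and at least 2.01 times the level of Igfbp5. Igfbp5, Igf2r and Igfbp4 followed at means of 62.5, 60.9 and 59.6 FPKM and could not be ordered: Igfbp5 exceeded Igf2r in 2 of 6 libraries, and Igf2r exceeded Igfbp4 in 5 of 6 libraries. Insr and Igfbp3 averaged 16.1 and 15.8 FPKM, with Insr above Igfbp3 in 4 of 6 libraries. Igf2, Igf1 and Igf1r averaged 7.74, 7.33 and 6.26 FPKM with overlapping ranges. Igfbp2 was the lowest, and in 5 of 6 libraries it lay below Igf1r.

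**Figure D1:**
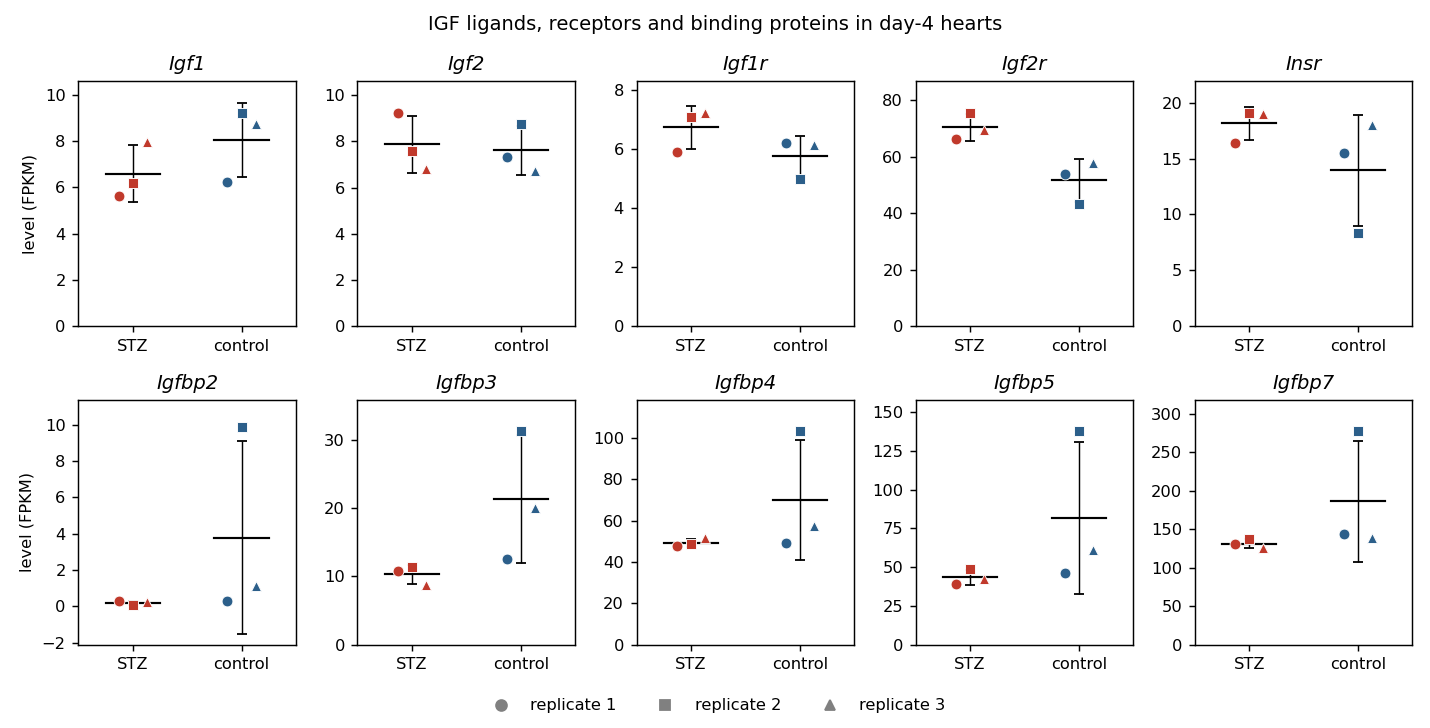
Level of each of the 10 genes in FPKM (y axis, linear, own scale per panel) in STZ and control hearts, with 1 point per library, marker shape for the replicate number, a horizontal line at the group mean and a vertical bar of 1 SD (n = 3). The 3 STZ values of Igf2r lie above all control values, those of Igfbp2, Igfbp3 and Igfbp7 lie below all control values, and control 2 (square) is the highest point of all 5 binding proteins and the lowest of all 3 receptors.

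The first comparison asked whether the ligands differed between hearts of STZ and control offspring. Igf1 (ENSMUSG00000020053, GRCm38 chromosome 10, 87858265 to 87937042, plus strand) was at 5.61, 6.20 and 7.97 FPKM in STZ hearts 1 to 3 and at 6.24, 9.21 and 8.74 FPKM in control hearts 1 to 3. The groups overlapped, STZ 1 and STZ 2 being the lowest values. The Igf1 log2 fold change, STZ over control, on log2(FPKM + 1) was -0.25 (SE 0.177, 95% interval -0.67 to 0.17; limma, BH-adjusted p = 0.922), and it was -0.16 without control 2.

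Igf2 (ENSMUSG00000048583, chromosome 7, 142650766 to 142666816, minus strand) was at 9.23, 7.57 and 6.81 FPKM in STZ hearts and at 7.35, 8.77 and 6.71 FPKM in control hearts. These values were interleaved, with the highest in STZ 1 and the lowest in control 3. The log2 fold change of Igf2 was 0.041 (SE 0.144, 95% interval -0.30 to 0.38; limma, BH-adjusted p = 0.963), and its sign depended on single libraries: it was -0.067 without STZ 1 and 0.14 without control 2.

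Within a library the scale of the values cancels in a ratio of 2 genes. The ratio of Igf2 to Igf1 was 1.64, 1.22 and 0.855 in STZ hearts and 1.18, 0.951 and 0.768 in control hearts. Igf2 was the higher ligand in 3 of 6 libraries, and the ratio did not separate the groups (log2 difference 0.33, exact two-sided permutation p = 0.4, where 3 against 3 samples cannot go below 0.1). The difference was 0.33 without control 2, but 0.10 without STZ 1, 0.58 without STZ 3 and 0.18 without control 3.

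Of the 3 receptors, Igf2r was the one whose groups did not overlap, and it stood higher in STZ hearts. Igf2r (ENSMUSG00000023830, chromosome 17, 12682406 to 12769664, minus strand) was at 66.2, 75.5 and 69.4 FPKM in STZ hearts and at 53.9, 43.1 and 57.7 FPKM in control hearts, from 8446 to 11977 reads per library. All 3 STZ values lay above all 3 control values. They also lay above controls 1 and 3 alone, a comparison in which 9.16% of all tested genes were higher in STZ hearts without overlap. The means were 70.3 ± 4.73 FPKM in STZ hearts and 51.6 ± 7.57 FPKM in control hearts (SD, n = 3 each). The log2 fold change was 0.45 (SE 0.146, 95% interval 0.10 to 0.80), with an unadjusted p of 0.0186 (limma) and a BH-adjusted p of 0.922, so Igf2r did not pass the threshold of 0.05 over the 12431 genes tested. Without control 2 its log2 fold change was 0.33 (SE 0.0915; limma, unadjusted p = 0.0110, BH-adjusted p = 0.9999).

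Igf2r shares its locus with Airn, the antisense RNA that silences the paternal Igf2r copy in mouse embryos. Airn (chromosome 17, 12741311 to 12860136, plus strand) overlaps Igf2r over 28354 bases, but the exons of the genes share 0 bases in GENCODE M21, so exonic reads of one are not exonic reads of the other whatever the strand setting. Airn was at 4.42, 6.63 and 6.35 FPKM in STZ hearts and at 4.89, 5.34 and 7.57 FPKM in control hearts, and its log2 fold change was -0.024, with an SE of 0.194 and a BH-adjusted p of 0.988 in limma. The Airn values of the groups were interleaved. The ratio of Igf2r to Airn was 14.96, 11.4 and 10.9 in STZ hearts and 11.03, 8.07 and 7.62 in control hearts, where control 1 fell within the STZ range (log2 difference 0.48, and 0.42 without control 2; exact two-sided permutation p = 0.2).

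M6pr encodes the other mannose 6-phosphate receptor, which sorts lysosomal enzymes but does not bind IGF2. It was at 18.0, 16.7 and 17.1 FPKM in STZ hearts and at 16.5, 18.6 and 16.9 FPKM in control hearts, which is an overlap of the groups. The ratio of Igf2r to M6pr was 3.67, 4.52 and 4.06 in STZ hearts and 3.27, 2.31 and 3.42 in control hearts. All STZ ratios lay above all control ratios, with a log2 difference of 0.46 and an exact two-sided permutation p = 0.1, the smallest that this design allows. The log2 difference of this ratio was 0.28 without control 2, and the groups did not overlap there either.

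Insr (ENSMUSG00000005534, chromosome 8, 3122061 to 3279617, minus strand) was at 16.4, 19.1 and 18.97 FPKM in STZ hearts and at 15.5, 8.37 and 18.0 FPKM in control hearts. The low value was that of control 2, and control 3 lay within the STZ range. The Insr log2 fold change was 0.42 (SE 0.259, 95% interval -0.20 to 1.03; limma, BH-adjusted p = 0.922) and 0.11 without control 2.

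Igf1r (ENSMUSG00000005533, chromosome 7, 67952827 to 68233668, plus strand) was at 5.91, 7.08 and 7.23 FPKM in STZ hearts and at 6.19, 4.99 and 6.15 FPKM in control hearts. STZ 1 lay among the control values, so the groups overlapped. The Igf1r log2 fold change was 0.19 (SE 0.124, 95% interval -0.10 to 0.49; limma, BH-adjusted p = 0.922) and 0.11 without control 2.

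The ratio of the insulin receptor gene to the IGF1 receptor gene was 2.78, 2.69 and 2.62 in STZ hearts and 2.50, 1.68 and 2.92 in control hearts. Insr was thus the more abundant kinase receptor per gene length in all 6 libraries. The ratio overlapped between the groups (log2 difference 0.23, exact two-sided permutation p = 0.6) and its difference was -0.0024 without control 2. For the ratio of Igf2 to Igf2r, the ligand over its clearance receptor, the values were 0.1396, 0.1003 and 0.0982 in STZ hearts and 0.136, 0.203 and 0.116 in control hearts, again with overlap (log2 difference -0.41, and -0.18 without control 2; exact two-sided permutation p = 0.3).

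All 5 binding proteins had lower group means in STZ hearts, and all 5 had their highest value in control 2. Across the 12431 tested genes, control 2 was above the 5 other libraries at 27.4% and below them at 41.7%. The 3 receptors were all lowest in control 2.

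Igfbp3 encodes a major IGF carrier of the circulation that is also made by connective tissue cells. Igfbp3 (ENSMUSG00000020427, chromosome 11, 7206086 to 7213923, minus strand) was at 10.8, 11.3 and 8.75 FPKM in STZ hearts and at 12.6, 31.2 and 20.04 FPKM in control hearts, from 508 to 2092 reads per library. All 3 STZ values lay below all 3 control values, the nearest being STZ 2 and control 1. The means were 10.3 ± 1.37 FPKM in STZ hearts and 21.3 ± 9.39 FPKM in control hearts (SD, n = 3 each). The log2 fold change of Igfbp3 was -0.90 (SE 0.2995, 95% interval -1.61 to -0.19), with an unadjusted p of 0.0203 and a BH-adjusted p of 0.922 (limma). Without control 2 it was -0.59 (SE 0.201) and the groups still did not overlap, as at 17.7% of all tested genes (8.55% lower in STZ hearts). The controls were then control 1 at 12.6 FPKM, close to STZ 2 at 11.3 FPKM, and control 3 at 20.04 FPKM, so the difference rested mostly on control 3.

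Igfbp5 encodes a binding protein that attaches to extracellular matrix. Igfbp5 (ENSMUSG00000026185, chromosome 1, 72857932 to 72874884, minus strand) was at 38.9, 48.8 and 42.3 FPKM in STZ hearts and at 46.0, 137.7 and 61.4 FPKM in control hearts. STZ 2 exceeded control 1, so the groups overlapped. The Igfbp5 log2 fold change was -0.75 (SE 0.378, 95% interval -1.65 to 0.15; limma, BH-adjusted p = 0.922), and it was -0.29 without control 2.

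Igfbp4, whose product mainly restrains IGF action until proteases cut it, lies at chromosome 11, 99041244 to 99054392 on the plus strand (ENSMUSG00000017493). It was at 47.7, 48.7 and 51.5 FPKM in STZ hearts and at 49.1, 103.1 and 57.4 FPKM in control hearts. Control 1 fell inside the STZ range. The log2 fold change of Igfbp4 was -0.42 (SE 0.267, 95% interval -1.05 to 0.21; limma, BH-adjusted p = 0.922) and -0.11 without control 2.

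Igfbp7, made by vascular and connective tissue cells, lies at chromosome 5, 77349240 to 77408041 on the minus strand (ENSMUSG00000036256). It was at 130.4, 137.2 and 125.8 FPKM in STZ hearts and at 143.2, 276.9 and 138.1 FPKM in control hearts. The groups did not overlap, but STZ 2 and control 3 were close. The Igfbp7 log2 fold change was -0.43 (SE 0.276, 95% interval -1.08 to 0.23; limma, BH-adjusted p = 0.922) and -0.10 without control 2. Its last exon shares 85 bases with Polr2b on the other strand, so reads there cannot be assigned without a stated strand setting.

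Igfbp2, a binding protein abundant in fetal tissues, lies at chromosome 1, 72824503 to 72852474 on the plus strand (ENSMUSG00000039323). It was at 0.304, 0.0967 and 0.233 FPKM in STZ hearts and at 0.322, 9.90 and 1.14 FPKM in control hearts. These correspond to 10, 3 and 8 reads in STZ hearts and to 10, 391 and 37 reads in control hearts, so STZ 1 and control 1 rested on the same number of reads. Igfbp2 did not pass the filter on low values and has no test.

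Across the family, 9 of the 10 members were tested, 4 with a positive and 5 with a negative log2 fold change, and 0 passed the adjusted threshold, which 0.0241% of all tested genes did (limma), or 0.0322% without control 2. At an unadjusted p under 0.05, 2 of 9 members were called, against 2.59% of all tested genes: Igf2r higher, against 1.17%, and Igfbp3 lower, against 1.42%. The same 2 were called without control 2, against 3.93% of all tested genes, 2.06% higher and 1.87% lower. The groups did not overlap at 3 of the 9 tested members, against 8.54% of all tested genes (4.92% higher and 3.62% lower in STZ hearts). Without control 2 they did not overlap at 3 of 9, against 17.7% (9.16% higher and 8.55% lower). The median log2 fold change of the 9 was -0.25, against 0.031 over all tested genes, and without control 2 it was -0.10, against -0.0016. A voom fit on the recovered reads also called 0 members at the adjusted threshold and the same 2 genes at an unadjusted p under 0.05.

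**Figure D2:**
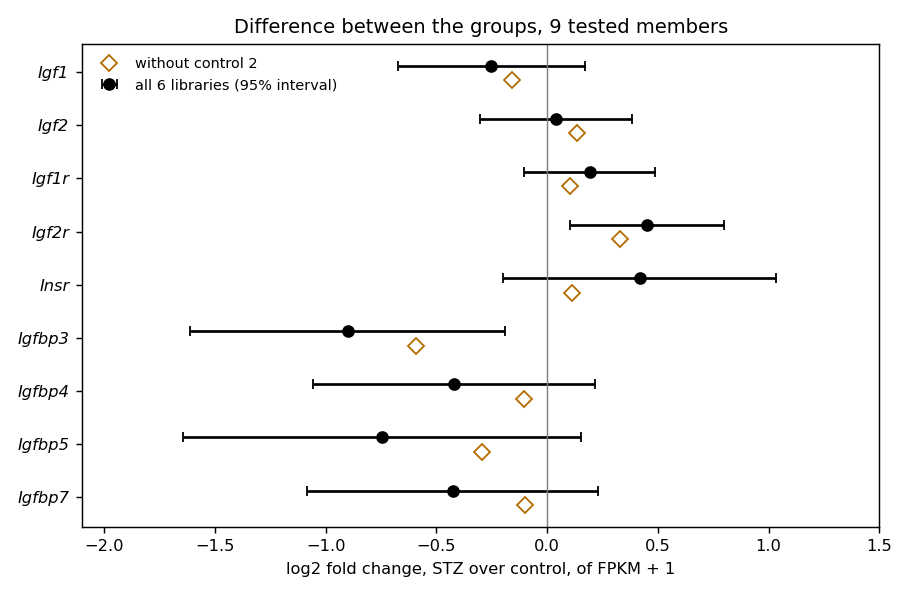
Log2 fold change, STZ over control, of FPKM + 1 (x axis) for the 9 tested members, with all 6 libraries (filled circles, bars are 95% limma intervals) and without control 2 (open diamonds). The intervals of Igf2r (0.10 to 0.80) and Igfbp3 (-1.61 to -0.19) lie to one side of 0, those of the other 7 span it, and the diamonds of all members but Igf2 lie closer to 0 than the circles.

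The binding proteins were also compared as a sum and with each other. Summed, the 5 stood at 228.1, 246.1 and 228.6 FPKM in STZ hearts and at 251.3, 558.9 and 278.0 FPKM in control hearts. The sums did not overlap (log2 difference -0.54, or -0.17 without control 2; exact two-sided permutation p = 0.1, the smallest possible). Igfbp7 alone made up 55.0% to 57.2% of the sum in STZ hearts and 49.6% to 57.0% in control hearts. Without Igfbp7 the sums overlapped, at 97.7 to 108.9 FPKM in STZ hearts and 108.1 to 281.9 FPKM in control hearts. As a share of the summed FPKM of all 10 members, the 5 binding proteins made up 67.5% to 68.8% in STZ hearts and 73.8% to 88.2% in control hearts. The ratio of the binding proteins to the ligands and receptors was 2.21, 2.13 and 2.07 in STZ hearts and 2.82, 7.51 and 2.86 in control hearts (log2 difference -0.88, or -0.41 without control 2; exact two-sided permutation p = 0.1). That ratio was chosen after the values had been seen, as were those to marker genes, to Airn, to Igfbp4 and to Igfbp7. This makes 11 in addition to 6 planned values, which were themselves chosen with earlier results of these data known. None of the 17 can pass 0.05 in this design (lowest p with BH adjustment over the 17 exact permutation tests, 0.283).

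Igfbp3 was then set against single binding proteins. The ratio of Igfbp3 to Igfbp4 was 0.227, 0.233 and 0.170 in STZ hearts and 0.256, 0.303 and 0.349 in control hearts, with no overlap (log2 difference -0.53, exact two-sided permutation p = 0.1). The ratio of Igfbp3 to Igfbp7 was 0.0829, 0.0826 and 0.0695 in STZ hearts and 0.0880, 0.113 and 0.145 in control hearts, with no overlap (log2 difference -0.53, exact two-sided permutation p = 0.1). Both differences were -0.53 without control 2. With 1 library left out in turn, the difference ranged from -0.65 to -0.39 for Igfbp3 over Igfbp4 and from -0.71 (without control 1) to -0.35 (without control 3) for Igfbp3 over Igfbp7. Against Igfbp5 the groups overlapped, at 0.278, 0.232 and 0.207 in STZ hearts and 0.274, 0.227 and 0.327 in control hearts (log2 difference -0.20, -0.33 without control 2 and -0.072 without control 3; exact two-sided permutation p = 0.5).

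**Figure D3:**
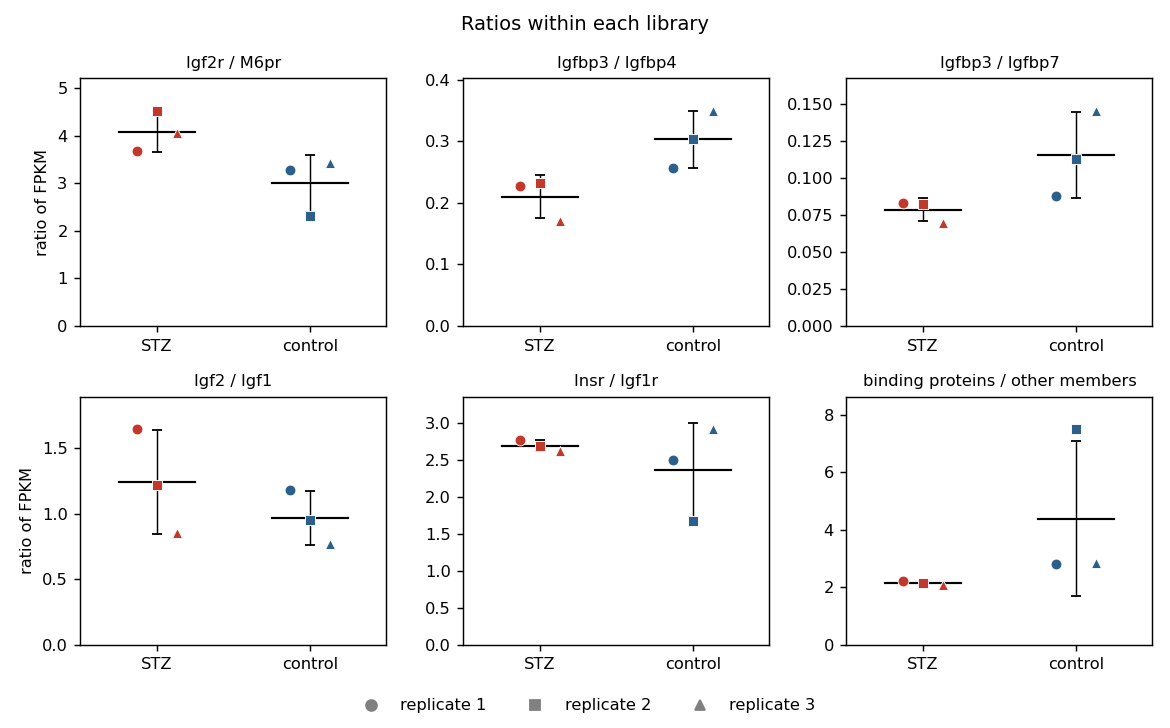
Ratios of FPKM within each library (y axes, linear from 0) for 6 pairs or sums in STZ and control hearts, with 1 point per library, the group mean (line) and 1 SD (bar, n = 3). The groups do not overlap for Igf2r over M6pr, Igfbp3 over Igfbp4, Igfbp3 over Igfbp7 and binding proteins over the other members, and overlap for Igf2 over Igf1 and Insr over Igf1r. Igfbp3 over Igfbp4, Igfbp3 over Igfbp7 and binding proteins over the other members were chosen after the values had been seen. The planned ratios Igf2 over Igf2r and Igfbp3 over Igfbp5, in which the groups overlap, are not drawn.

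Marker genes of cell types in the heart also differed between the libraries. In bulk hearts, fewer cells of a type and less RNA per cell cannot be told apart. Of 7 fibroblast markers, all 7 had negative log2 fold changes, with a median of -0.40, and -0.21 without control 2. Their summed level was 682.4 to 721.9 FPKM in STZ hearts and 753.2 to 1338 FPKM in control hearts. All 8 cardiomyocyte markers had positive log2 fold changes, with a median of 0.39, and 0.020 without control 2. None of these markers was at 0, and their part in the differences of the family was not tested.

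Set against the geometric mean of the fibroblast markers, Igfbp3 was at 0.186, 0.180 and 0.139 in STZ hearts and at 0.184, 0.315 and 0.274 in control hearts, and control 1 fell within the STZ range (log2 difference -0.59, and -0.43 without control 2; exact two-sided permutation p = 0.2). Igfbp4 over the same markers differed by a log2 value of -0.061, and by 0.096 without control 2. Igfbp5 over them differed by -0.39, and by -0.097 without control 2. Igfbp7 over 7 endothelial markers was at 4.33, 4.02 and 3.58 in STZ hearts and at 4.26, 11.04 and 3.77 in control hearts, a log2 difference of -0.50 that was -0.017 without control 2.

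Igf2r over 8 cardiomyocyte markers was at 0.163, 0.185 and 0.164 in STZ hearts and at 0.127, 0.228 and 0.152 in control hearts. Control 2 was the highest by this ratio and the lowest by level, so the log2 difference was 0.060 with all libraries, 0.30 without control 2, where the groups did not overlap, and -0.12 without control 1. Over the fibroblast markers Igf2r was at 1.14, 1.197 and 1.098 in STZ hearts and at 0.789, 0.435 and 0.788 in control hearts, without overlap (log2 difference 0.82, and 0.54 without control 2; exact two-sided permutation p = 0.1). Insr over the cardiomyocyte markers overlapped between the groups, with a log2 difference of 0.054, 0.085 without control 2 and -0.055 without control 1.

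Defining markers of liver, a main source of IGF1 and several binding proteins in the body, were at or near 0: Serpina1a and Fgb were listed at 0 in all 6 libraries, and the 6 hepatocyte markers summed to 0.552 to 0.859 FPKM in STZ hearts and 0.400 to 6.83 FPKM in control hearts, the highest being control 2. The 6 epicardial markers summed to 24.6 to 30.4 FPKM in STZ hearts, 72.9 FPKM in control 2 and 26.1 to 44.6 FPKM in the other control hearts. The 44.6 FPKM was that of control 3, where each of these markers was higher than in any STZ heart and than in control 1. Upk3b, for example, was at 13.2 FPKM in control 3, 5.59 FPKM in control 1 and at most 7.24 FPKM in STZ hearts. Leaving out control 2 therefore leaves control hearts that differ in these markers. The part of epicardial cells was not tested.

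Spread differed between the groups, although the main limma fit takes both to have a common spread. On the log2(FPKM + 1) scale the SD over control hearts was 9.91 times that over STZ hearts for Igfbp4, 9.04 times for Igfbp7, 4.99 times for Igfbp5 and 3.45 times for Igfbp3. Among the receptors and ligands this factor was 4.67 for Insr, 2.28 for Igf2r, 1.19 for Igf1, 1.08 for Igf1r and 0.875 for Igf2. Control 2 exceeded the mean of controls 1 and 3 by a factor of 2.56 for Igfbp5, 1.97 for Igfbp7, 1.94 for Igfbp4 and 1.91 for Igfbp3, and of 13.5 for Igfbp2.

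As a description over the 6 libraries, Pearson correlations of log2(FPKM + 1) between binding proteins ranged from 0.863 to 0.992 over the 10 pairs, and from 0.0868 to 0.884 over 5 libraries without control 2. Among 6697 tested genes with a mean of at least 5 FPKM, leaving out names of predicted genes, microRNAs, snoRNAs, pseudogenes and the mitochondrial genome, those whose pattern was most like that of Igf2r were Pogz (r = 0.989) and Mical3 (r = 0.988). For Igfbp3 they were Colec12 (0.995) and Clic1 (0.988). For Igfbp2 they were Col1a1 (0.998) and Col1a2 (0.997), and Col1a2 (0.998) was also the first for Igfbp4. Igfbp5 was most like Angptl2 (0.997) and Igfbp7 most like Lhfp (0.998). Insr was most like Hcfc1 (0.998), Igf1r most like Sipa1 (0.991), Igf1 most like Itgav (0.966) and Igf2 most like Arf3 (0.994). All these values share the same 6 libraries, including control 2, and are the highest of many. No value without control 2 is given for the most alike genes, so they may rest largely on that library. For Igfbp2, control 2 had 391 reads and the other libraries 3 to 37.

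The wider IGF pathway was read from 7 lists of 49 genes, of which 42 were tested. Of these, 26 had a positive and 16 a negative log2 fold change, with a median of 0.093, against 0.031 over all tested genes, and without control 2 of 0.029, against -0.0016. None passed the adjusted threshold (limma), and 1 of the 42, Igfbp6, had an unadjusted p under 0.05, against 2.59% of all tested genes. The groups did not overlap at 5 of the 42 (Igfbp6, Igf2os, Irs1, Grb10 and Gga1), against 8.54% of all tested genes.

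Igfbp6, a binding protein that prefers IGF2, was at 3.94, 3.53 and 4.31 FPKM in STZ hearts and at 5.66, 21.7 and 7.14 FPKM in control hearts. The groups did not overlap with or without control 2. Its log2 fold change was -1.12 (SE 0.430; limma, unadjusted p = 0.0356, BH-adjusted p = 0.922), and -0.58 without control 2. Of the other binding protein genes, Igfbpl1 had 0.21 (-0.060 without control 2), Igfbp1 was listed at 0 in all 6 libraries, and Igfals, which stabilises the circulating IGF complex, was below 1 FPKM throughout.

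Among 6 tested proteases of the binding proteins and their inhibitors, 2 were positive and 4 negative. The 2 with the lowest p were Htra1, a secreted serine protease, with a log2 fold change of -0.19, and the metalloprotease gene Adam12, at -0.10. Without control 2 these were -0.045 and -0.010. Pappa and Pappa2, the main proteases of Igfbp4 and Igfbp5, were below 0.5 FPKM in all libraries and were not tested.

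Of 6 tested neighbours and RNA regulators of Igf2, 3 were positive and 3 negative. H19, the maternally expressed RNA gene next to Igf2, was at 438.3, 420.9 and 353.6 FPKM in STZ hearts and at 386.8, 799.0 and 387.9 FPKM in control hearts. Its log2 fold change of -0.29 turned to 0.055 without control 2. Ins2, the insulin gene on the other side, was below 0.2 FPKM in all 6 libraries. Plagl1, an imprinted zinc finger gene of growth control, was at 40.8, 41.1 and 32.7 FPKM in STZ hearts and at 32.7, 22.9 and 30.8 FPKM in control hearts (log2 fold change 0.40, and 0.25 without control 2; limma, unadjusted p = 0.0514). Igf2os, which runs antisense to Igf2 and shares 98 exonic bases with it, had a log2 fold change of 0.19 without overlap between the groups (limma, unadjusted p = 0.175).

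Of 10 receptor adaptors and brakes, 8 were positive and 2 negative, with a median of 0.17, and 0.036 without control 2. Irs1, the insulin receptor substrate, was at 7.03, 6.36 and 7.16 FPKM in STZ hearts and at 5.51, 2.85 and 6.15 FPKM in control hearts, without overlap (log2 fold change 0.48; limma, unadjusted p = 0.0796). Irs2 was at 5.41, 6.87 and 5.23 FPKM in STZ hearts and at 4.001, 2.99 and 5.29 FPKM in control hearts (log2 fold change 0.44; limma, unadjusted p = 0.0507). Without control 2 the values were 0.20 for Irs1 and 0.28 for Irs2.

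The growth hormone axis, which sets Igf1 transcription in liver, had 4 positive and 3 negative members with a median of 0.010, and 0.048 without control 2. Stat5a and Cish had the lowest p there, with log2 fold changes of -0.13 and 0.34, and of -0.097 and 0.025 without control 2. Of 8 genes of mannose 6-phosphate sorting, the pathway that uses Igf2r as a carrier, 5 were positive and 3 negative, with a median of 0.082, and 0.044 without control 2. Gnptab, which encodes subunits of the enzyme that starts the mannose 6-phosphate tag, had a log2 fold change of 0.32, and the adaptor gene Gga1 had 0.15. These were 0.12 and 0.098 without control 2. The 3 genes of ligand processing and degradation were positive, among them Ide, the insulin-degrading enzyme, at 0.39, and Pcsk6, a proprotein convertase, at 0.17. Ide was at -0.036 and Pcsk6 at -0.16 without control 2.

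**Figure D4:**
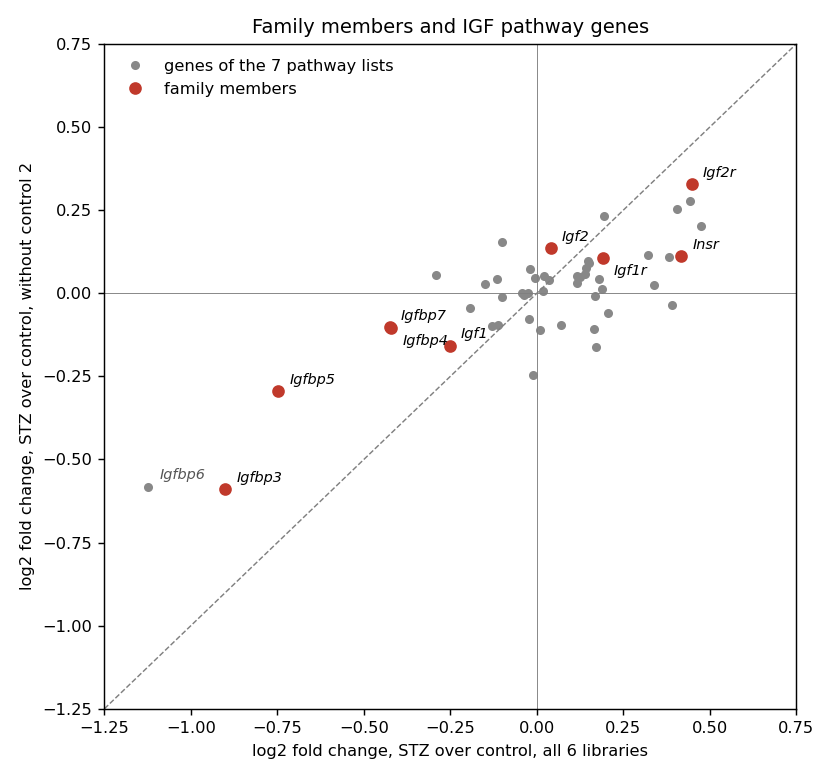
Log2 fold change, STZ over control, with all 6 libraries (x axis) and without control 2 (y axis), for the 9 tested members (red, named) and 42 tested genes of the 7 pathway lists (grey), with a dashed line where both are equal. Igf2r (0.45 and 0.33), Igfbp3 (-0.90 and -0.59) and Igfbp6 (-1.12 and -0.58) lie farthest from 0 on the y axis.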

How the data were processed

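Per the labels' protocols, total RNA was column-purified and made into libraries with a SMARTER mRNA kit. The genome build was GRCm38 (mm10), per the submitters' processing notes. Neither aligner, counter nor strandedness is given in the sources used here. The deposited values are read as FPKM, from the table's abbreviation and from the values. Multiplied by gene length, 100% of values above 0 were whole multiples of 1 read within 0.01 reads. Deposited gene lengths equal the exonic length in GENCODE M21 for all 10 members. The authors' scale was 0.985 to 1.03 times the recovered reads in 5 libraries and 1.21 times in control 2. Against recovered reads multiplied by trimmed-mean (TMM) scaling factors, it was 1.03 to 1.05 times in all libraries. The alternative rescaled by TMM factors is therefore close to the main fit.

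Groups and replicate numbers came from sample titles. The main test was limma 3.58.1 (R 4.3.3), applied to log2(FPKM + 1) with a trended prior. It covered the 12431 genes that reached 1 FPKM in 3 or more libraries, and its two-sided p-values were adjusted over all of these by the Benjamini-Hochberg (BH) method. The fit was also run on simulated data. The outcome of that run is not given here, and no conclusion on how well the fit suits these libraries is drawn from it. The pseudocount of 1 understates changes of low genes. Ratios were compared on the log2 scale by an exact permutation test over 20 assignments of samples. Alternatives covered the pseudocount, filters, scaling, a replicate block, weights, voom and each library left out. Every pair of libraries differed by more than sampling noise (lowest chi-square per degree of freedom 11.8). Plots used Python 3.11.15 and matplotlib 3.10.9.

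Members, lists and tests were chosen with earlier results of these data known. All 10 members are named whatever their values, with 5 related genes (Airn, H19, Ins2, M6pr, Igfbp6), in each pathway list the 2 genes ranked first by unadjusted p, and the most correlated genes of each member, of which the first or the first 2 are printed. Other genes were named after their values were seen.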

Additional observations from a re-analysis of the deposited data

How the results depend on the processing

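The number of family members past the adjusted threshold was 0 under all 16 alternatives, as was that of the 42 pathway genes. Over all tested genes 3 passed, 8 with array weights, 1 with voom on recovered reads, 0 with the replicate block, and 2 to 5 when 1 library was left out (5 without control 3). At an unadjusted p under 0.05, Igf2r passed in 14 of the 16 alternatives, not without STZ 2 or STZ 3, and Igfbp3 in 15, not without STZ 3. The log2 fold change of Igf2r ranged from 0.33 (without control 2) to 0.53 (without control 3), and that of Igfbp3 from -0.59 (without control 2) to -1.21 (without control 1), over fits with 1 library left out. Leaving out control 2 moved the log2 fold change of every tested member but Igf2r by more than 1.5 times, to the values given above. With array weights, which gave control 2 a weight of 0.146, Igfbp5 was at -0.25. Igf2 changed sign when rescaled by recovered total reads (-0.021), with voom (-0.023) and over libraries left out (-0.067 to 0.14). Other genes also changed sign: with array weights Adam12 (0.046), Airn (0.062), H19 (0.020), Igfbpl1 (-0.092), M6pr (0.028) and Pcsk6 (-0.033), and with 1 library left out Airn (-0.13 to 0.14), H19 (-0.47 to 0.055), Ide (-0.036 to 0.62), Igfbpl1 (-0.060 to 0.39), M6pr (-0.039 to 0.046) and Pcsk6 (-0.16 to 0.38). The cause was not tested. Deviations of same-numbered samples from their group means had correlations of 0.021, -0.041 and 0.092 for numbers 1 to 3. Those of differently numbered samples ran from -0.14 to 0.081. With so few samples these values cannot show whether the numbers pair samples. With the replicate block as a term, Igfbp5 joined Igf2r and Igfbp3 at an unadjusted p under 0.05, and no member passed the adjusted threshold. Depth limits Igfbp2, at 3 to 10 reads in STZ hearts.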
